A study of Mus musculus with 18 samples.

Results

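Lum, Dcn, Fmod, Bgn, Ogn, Omd, Prelp, Aspn, Kera and Podn encode 10 small leucine-rich proteoglycans of the extracellular matrix. They were followed here through every probe set that the array annotation gives to one of them alone, 21 of 45037 probe sets and 10 of the 18193 genes with a symbol. The family was chosen by measured values: Fmod, Lum and Dcn stood much higher in tumours without the NRAS transgene signal than in vehicle tumours. The difference between those arms is therefore given for the 10 genes as a description with no p-value, and nothing is read from it about the family.

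As background, these proteins have a core of leucine-rich repeats that lies on collagen fibrils and limits how far the fibrils grow sideways. Decorin and biglycan carry chondroitin or dermatan sulfate chains, fibromodulin, lumican and keratocan carry keratan sulfate or its unsulfated backbone, and asporin and Prelp usually carry neither. Outside the fibril, several of them bind growth factors of the TGF-beta family or cell surface receptors. In skin and in tumours they are known mainly as products of fibroblasts.

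The study measured total RNA of 18 mouse melanoma allografts, 6 tumours an arm, on single-channel Affymetrix arrays. All tumours came from 1 cell line, iNRAS-475, placed within the skin of nude mice, a strain without a thymus, whose drinking water held doxycycline at 2 mg/ml. They had grown for 6 weeks, to between 200 and 500 mm3, when the arms were separated. Each array holds a separate tumour, from a piece of about 50 mg with the skin cut away, and whether tumours shared a mouse is not given.

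NRAS-off mice were taken off doxycycline for 4 days. In the MEK inhibitor arm mice received AZD6244, a small-molecule inhibitor of the kinases MEK1 and MEK2, at 100 mg/kg for 4 days. Vehicle mice received the carrier alone, for a time the labels do not give. The labels give this withdrawal for the NRAS-off arm alone, where the loss of the drug and the loss of the transgene signal cannot be told apart. The labels do not name the transgene's promoter or the age of the mice. Each tumour held host tissue beside the melanoma cells, and in such bulk RNA more cells of a type and more RNA per cell cannot be told apart.

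The median intensity of an array was 72.3 to 78.5, and arrays of 1 arm correlated at 0.9871 to 0.997. The brightest of 3 Nras probe sets read 1853 to 2009 in NRAS-off, 1858 to 2229 in MEK inhibitor and 2184 to 2524 in vehicle tumours, and whether it reads the transgene is not stated. Of the melanocyte markers, Sox10 read 7901 to 11275, 11503 to 16609 and 8258 to 10311 in the same order. Among the 7 tested, 5 were higher in NRAS-off and 2 in MEK inhibitor than in vehicle tumours, with none lower. Over all genes, 31.8% and 24.3% were higher in these contrasts and 27.5% and 20.9% lower. The pigment cell gene Pmel had medians of 671, 212 and 123 and the lineage factor gene Mitf 1013, 569 and 544, while the pigment enzyme genes Tyr and Tyrp1 stayed under the filter for low values (intensity 23.5) in every tumour. Keratinocyte markers stood apart in 2 tumours: their summed intensity was 30397 in NRAS-off replicate 2 and 1373 in MEK inhibitor replicate 6, against 612.7 to 987.1 in the other 16. Without these 2 tumours the numbers of members called higher were 10 for NRAS-off against vehicle, 6 for MEK inhibitor against vehicle and 10 for NRAS-off against MEK inhibitor, Kera counted, as with them.

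The stretch of DNA ahead of the start site is shown for Fmod, Ogn, Aspn and Bgn, 4 of the 6 members that were higher in both treated arms than in vehicle. Each run is the 250 bases before the start, read 5′ to 3′ on the gene's strand, from RefSeq on GRCm38.p6. Capitals mark the letters of an E-box (CANNTG, the site of basic helix-loop-helix factors) or of a TATA box (TATAAA), on either strand.
Fmod, chr1:134037004-134037253 (+): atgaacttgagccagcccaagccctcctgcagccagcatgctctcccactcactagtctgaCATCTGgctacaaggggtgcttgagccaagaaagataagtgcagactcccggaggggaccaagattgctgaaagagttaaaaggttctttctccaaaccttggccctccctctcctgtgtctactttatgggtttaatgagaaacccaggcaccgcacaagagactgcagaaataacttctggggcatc
Ogn, chr13:49607765-49608014 (+): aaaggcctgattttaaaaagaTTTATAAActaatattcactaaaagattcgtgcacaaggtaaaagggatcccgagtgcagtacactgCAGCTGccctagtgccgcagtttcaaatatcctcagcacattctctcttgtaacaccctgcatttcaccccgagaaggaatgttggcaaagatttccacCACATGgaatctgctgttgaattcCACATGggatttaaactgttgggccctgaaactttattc
Aspn, chr13:49544193-49544442 (+): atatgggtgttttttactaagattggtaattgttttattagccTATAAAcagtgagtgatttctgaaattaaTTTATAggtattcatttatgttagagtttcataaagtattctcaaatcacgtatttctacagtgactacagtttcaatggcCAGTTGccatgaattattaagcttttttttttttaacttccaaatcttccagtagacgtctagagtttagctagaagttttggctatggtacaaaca
Bgn, chrX:73483351-73483600 (+): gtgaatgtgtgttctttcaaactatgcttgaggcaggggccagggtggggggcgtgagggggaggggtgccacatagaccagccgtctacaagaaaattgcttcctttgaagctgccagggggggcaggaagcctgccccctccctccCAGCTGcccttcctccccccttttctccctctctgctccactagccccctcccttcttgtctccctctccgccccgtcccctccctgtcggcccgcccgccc

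The set of RefSeq promoters used here held 9 for 8 of the 10 members and none for Lum and Dcn. The TATA box letters TATAAA occurred in 2 of the 9, those of Aspn and Ogn, and in 12.4% of all 32851 mouse promoters of this length. They begin 207 and 178 bases before the start in Aspn and 229 and 227 in Ogn. Whether they act as a TATA box was not tested. In Ogn the matches on the 2 strands overlap. An E-box occurred in 6 of 9, against 66.2% of all promoters. No match was found in the 9 to the AP-1 letters TGANTCA (6.75% of all promoters), the ETS letters CCGGAAG (6.91%) or the SMAD letters CAGACA (17.1%). GC content ran from 30.0% in Aspn and 42.0% in Ogn through 51.2% in Fmod to 64.4% in Bgn, around a median of 52.4% over all promoters.

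In MEK inhibitor tumours Fmod, Ogn, Aspn, Dcn, Lum and Bgn were higher than in vehicle tumours, while Prelp, Podn, Kera and Omd were not called. In NRAS-off tumours all 10 members had higher means than in either other arm. Differences are given as log2(intensity + 16), from a limma fit of 15005 genes in all 3 arms, and a gene was called at a Benjamini-Hochberg adjusted p under 0.05 within a contrast. Of all genes, 31.8% were called higher and 27.5% lower in NRAS-off than in vehicle tumours, beside 10 of 10 members higher, a count that the choice of the family and the filter bear on. In MEK inhibitor against vehicle 24.3% of genes were called higher and 20.9% lower, beside 6 of 10 members higher and 0 lower. In NRAS-off against MEK inhibitor 24.3% were higher and 22.7% lower, beside all 9 members other than Kera. Kera is left out of that count because it entered the fit through its NRAS-off values alone. Tested against a 2-fold change, 6 members were higher in NRAS-off than in vehicle tumours (2.45% of all genes). The choice of the family bears on that count, which includes Fmod, Lum and Dcn, and nothing is read from it. By the same test 1 member was higher in MEK inhibitor than in vehicle (0.433%) and 4 in NRAS-off than in MEK inhibitor (1.54%). The 1 is Fmod and the 4 are Fmod, Lum, Dcn and Ogn. The choice of the family therefore bears on these counts too, and nothing is read from them. The members' median difference was 2.05 for NRAS-off against vehicle, 0.76 for MEK inhibitor against vehicle and 1.33 for NRAS-off against MEK inhibitor, where the medians of all genes were 0.00, 0.01 and -0.01. Without Kera the members' medians were 2.12, 1.025 and 1.74. The 3 contrasts share arrays in pairs, and the members were picked for high values in NRAS-off over vehicle tumours, so the contrasts are not independent of each other or of that choice. The brightest probe set of each of the 10 genes passed the filter.

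**Figure D1:**
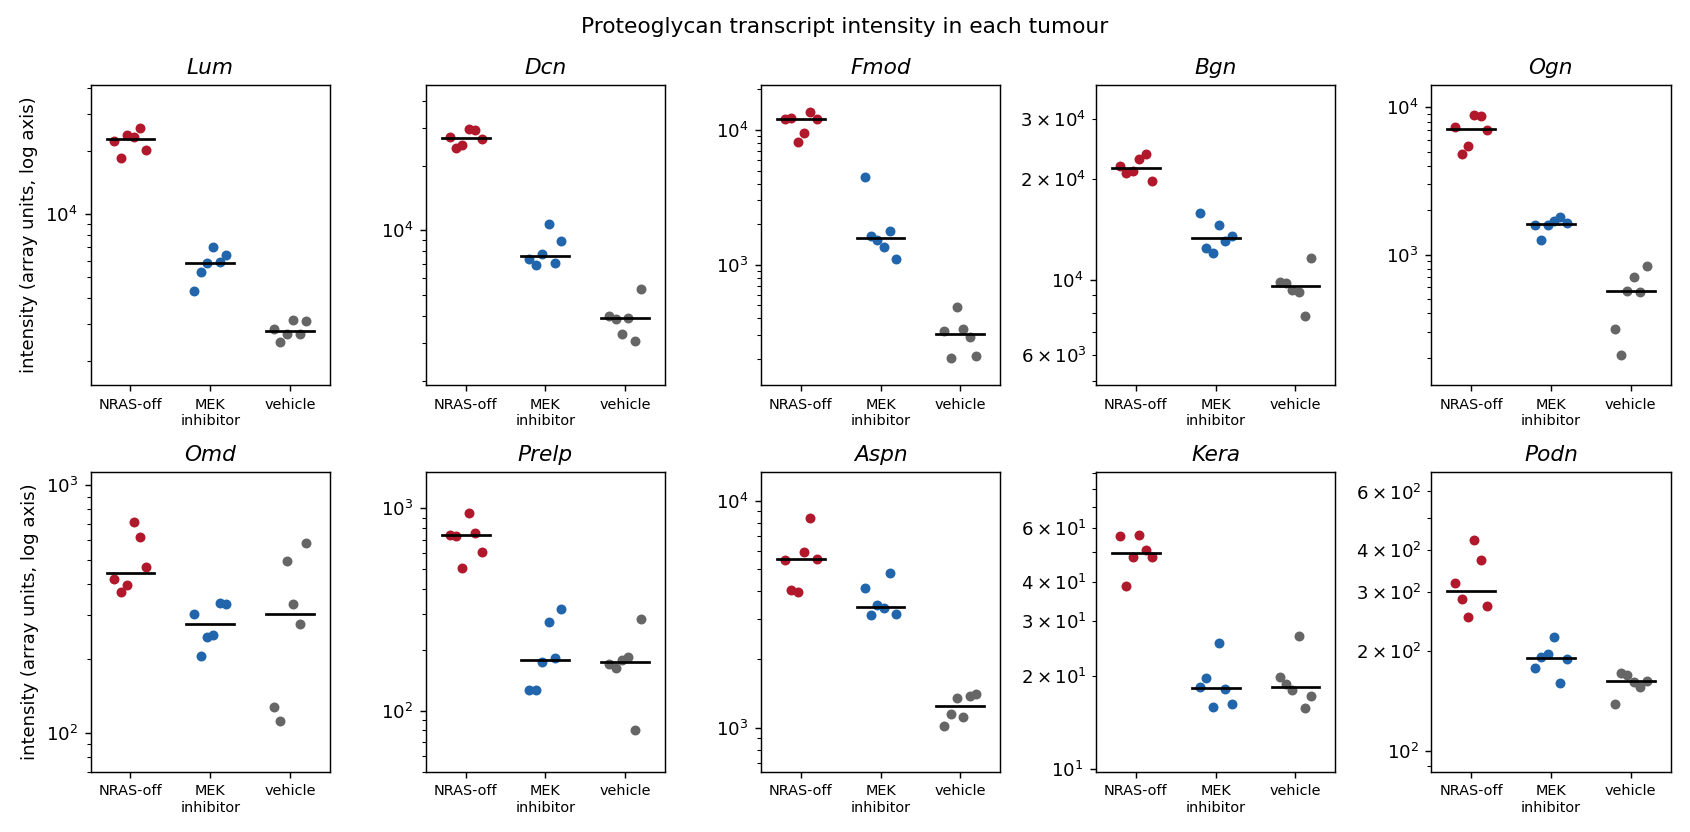
Intensity of each of the 10 proteoglycan genes (log axis, array units) in NRAS-off, MEK inhibitor and vehicle tumours. A point is a tumour and a line the median of the 6 tumours of an arm. For Lum, Dcn, Fmod, Bgn and Ogn the 3 arms do not overlap, whereas the MEK inhibitor and vehicle points of Omd, Prelp, Kera and Podn do. How many of all genes have arms apart was not counted, so this is not given as a trait of the family.

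Fibromodulin, which binds collagen fibrils and brings the crosslinking enzyme lysyl oxidase to them, had the largest differences of the family. Fmod read 8201 at the lowest, 12142 at the median and 13506 at the highest in NRAS-off tumours, 1094, 1577 and 4502 in MEK inhibitor tumours, and 204, 307 and 481 in vehicle tumours. The other members are given by the same 3 values, the lowest, the median and the highest of the 6 tumours. The arms did not overlap for Fmod. Here and below, overlap describes the tumours of a gene alone, because its share over all genes was not counted. On the log2 scale NRAS-off exceeded vehicle by 5.17 ± 0.26 (SE, n = 6 each), the second-largest rise among the 15005 genes. MEK inhibitor exceeded vehicle by 2.52 ± 0.26 (limma adjusted p = 3.6e-07), with 0.1% of genes showing a larger rise. NRAS-off exceeded MEK inhibitor by 2.65 ± 0.26, given with no p because the NRAS-off arrays served to pick Fmod. The vehicle arrays behind the MEK inhibitor difference also entered that choice.

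MEK inhibitor replicate 1 stood above its arm, at 4502 against 1094 to 1793 in the other 5 tumours, and it was the highest of that arm on all 6 Fmod probe sets. Without it MEK inhibitor exceeded vehicle by 2.25 (limma adjusted p = 5.1e-08) and NRAS-off exceeded MEK inhibitor by 2.92. Over the 6 probe sets the difference of NRAS-off from vehicle was 4.28 to 5.17 and that of MEK inhibitor from vehicle 1.70 to 2.52. The brightest set, used for the gene, is 1 of 5 whose name ends in x_at, a mark for probes that may also bind other transcripts; the set without that mark gave 4.69 and 2.02.

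Lumican and decorin, which both lie on collagen fibrils and whose genes are next to each other on chromosome 10, moved almost alike. Lum read 18604, 22852 and 25907 (lowest, median and highest) in NRAS-off tumours, 4287, 5884 and 6957 in MEK inhibitor tumours, and 2451, 2766 and 3121 in vehicle tumours. Dcn read 24226, 26910 and 29617 in NRAS-off tumours, 6927, 7559 and 10728 in MEK inhibitor tumours, and 3057, 3897 and 5334 in vehicle tumours. For both genes every NRAS-off tumour lay above every MEK inhibitor tumour, and every MEK inhibitor tumour above every vehicle tumour.

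The differences of NRAS-off from vehicle were 2.98 ± 0.10 for Lum and 2.80 ± 0.12 for Dcn (SE, n = 6 each). MEK inhibitor exceeded vehicle by 1.03 ± 0.10 for Lum (limma adjusted p = 1.9e-07) and by 1.06 ± 0.12 for Dcn (limma adjusted p = 9.4e-07). NRAS-off exceeded MEK inhibitor by 1.96 ± 0.10 for Lum and 1.74 ± 0.12 for Dcn. These are given with no p because the NRAS-off arrays served to pick both genes. The vehicle arrays behind the MEK inhibitor differences also entered that choice. A second, dimmer Dcn probe set gave 2.40, 0.82 and 1.58 for the 3 contrasts. With each gene centred on its own mean, the log2 values of Lum and Dcn differed by 0.20 (root mean square over 18 tumours), which is the smallest distance between any 2 members, just under that of Kera and Podn.

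Osteoglycin, also called mimecan, another keratan sulfate carrier that affects collagen fibril width, gave the second-largest differences. Ogn read 4850, 7162 and 8855 in NRAS-off tumours, 1261, 1614 and 1792 in MEK inhibitor tumours, and 209, 565 and 836 in vehicle tumours. The arms did not overlap, and vehicle replicates 1 and 2 were low in their arm, at 312 and 209 against 561 to 836. Over vehicle, NRAS-off was higher by 3.79 ± 0.25, MEK inhibitor exceeded vehicle by 1.68 ± 0.25 (limma adjusted p = 2.2e-05), and NRAS-off exceeded MEK inhibitor by 2.11 ± 0.25 (limma adjusted p = 1.2e-06). Its other probe set gave 3.71, 1.32 and 2.39.

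Asporin, a collagen binder that holds back TGF-beta, differed between the treated arms by an amount that depended on the probe set. Aspn read 3957, 5520 and 8410 in NRAS-off tumours, 3134, 3418 and 4797 in MEK inhibitor tumours, and 1022, 1251 and 1400 in vehicle tumours. Both treated arms lay above vehicle without overlap, while they overlapped each other on this probe set and not on the other. Over vehicle, NRAS-off was higher by 2.12 ± 0.16 and MEK inhibitor exceeded vehicle by 1.56 ± 0.16 (limma adjusted p = 1.9e-07). NRAS-off exceeded MEK inhibitor by 0.56 ± 0.16 (limma adjusted p = 0.0053), and the other Aspn probe set gave 1.02 ± 0.15 (limma adjusted p = 2.5e-05, over 33777 probe sets).

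Biglycan, decorin's closest relative and a ligand of the innate immune receptors TLR2 and TLR4, changed less. Bgn read 19714, 21470 and 23731 in NRAS-off tumours, 12041, 13314 and 15795 in MEK inhibitor tumours, and 7795, 9574 and 11594 in vehicle tumours. The arms did not overlap on any of its 3 probe sets. NRAS-off exceeded vehicle by 1.18 ± 0.08, MEK inhibitor exceeded vehicle by 0.50 ± 0.08 (limma adjusted p = 6.3e-05), and NRAS-off exceeded MEK inhibitor by 0.68 ± 0.08 (limma adjusted p = 1.5e-06). The MEK inhibitor difference was 0.50 to 0.62 over the 3 probe sets.

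**Figure D2:**
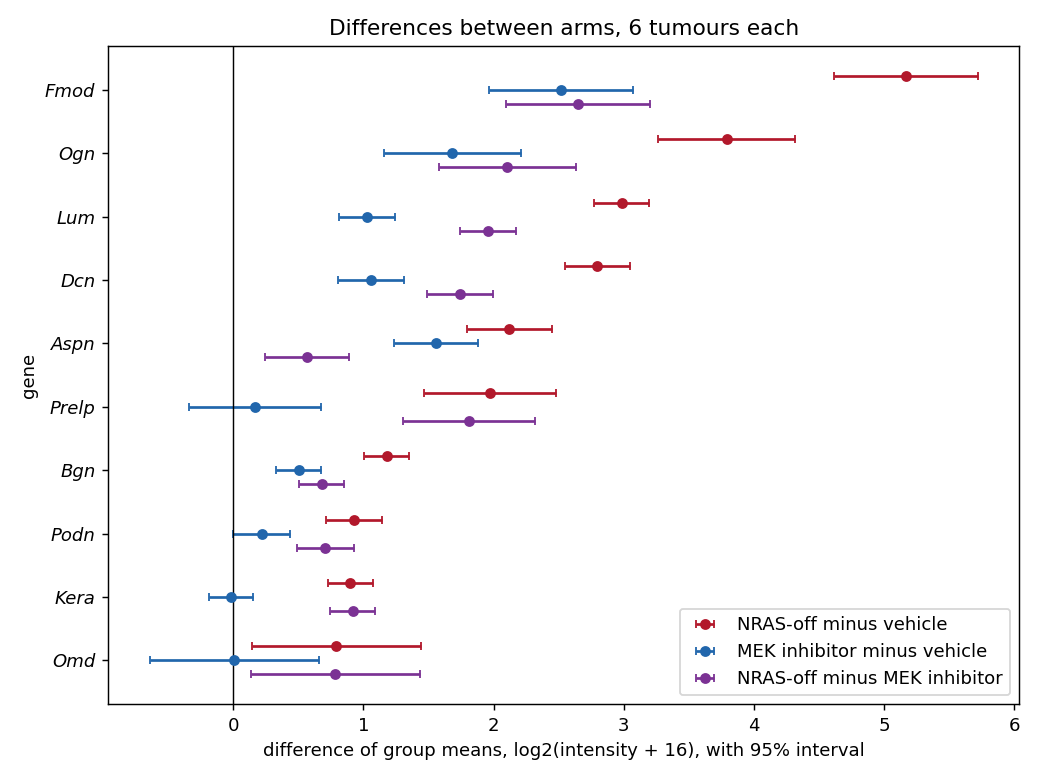
Differences between arms for each gene, in log2(intensity + 16), with 95% intervals from the limma fit, for both treated arms over vehicle and for NRAS-off over MEK inhibitor. Genes run from Fmod, at 5.17 for NRAS-off minus vehicle, down to Omd, at 0.79. The MEK inhibitor intervals of Prelp, Kera and Omd include 0 and that of Podn begins at 0.001.

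Prelp, a heparin-binding member that ties basement membranes to the collagen below them, was called higher in the NRAS-off arm and not in the MEK inhibitor arm. It read 506, 735 and 947 in NRAS-off tumours, 126, 178 and 317 in MEK inhibitor tumours, and 79.9, 174 and 285 in vehicle tumours. MEK inhibitor and vehicle tumours overlapped, and NRAS-off tumours lay above both. NRAS-off exceeded vehicle by 1.98 ± 0.24 and MEK inhibitor by 1.81 ± 0.24 (limma adjusted p = 4.6e-06). MEK inhibitor minus vehicle was 0.17 ± 0.24 (95% interval -0.34 to 0.67, limma adjusted p = 0.622). The second Prelp probe set gave smaller differences, 0.94 for NRAS-off minus vehicle and -0.13 for MEK inhibitor minus vehicle (limma adjusted p = 0.329).

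Keratocan, the keratan sulfate proteoglycan of the cornea, and podocan, a member first described in kidney podocytes, behaved likewise at lower signal. Kera read 38.8, 49.6 and 56.8 in NRAS-off tumours, 15.9, 18.2 and 25.4 in MEK inhibitor tumours, and 15.7, 18.4 and 26.8 in vehicle tumours. The means of the MEK inhibitor and vehicle arms, 18.9 and 19.4, lie under the filter of 23.5, so Kera passed that filter only through the NRAS-off arm and had to differ. Its NRAS-off differences, 0.90 ± 0.08 from vehicle and 0.92 ± 0.08 from MEK inhibitor, are therefore given with no p. They ran from 0.45 and 0.46 with a pseudocount of 64 to 1.33 and 1.36 with a pseudocount of 1. MEK inhibitor minus vehicle was -0.02 ± 0.08 (95% interval -0.19 to 0.15, limma adjusted p = 0.89). Podn read 253, 302 and 430 in NRAS-off tumours, 160, 190 and 219 in MEK inhibitor tumours, and 139, 162 and 171 in vehicle tumours. NRAS-off tumours lay above the others, and the other arms overlapped. For Podn, NRAS-off exceeded vehicle by 0.93 ± 0.10 and MEK inhibitor by 0.71 ± 0.10 (limma adjusted p = 1.4e-05). The MEK inhibitor difference of Podn from vehicle, 0.22 ± 0.10 (95% interval 0.001 to 0.43), missed the threshold (limma adjusted p = 0.096) and passed it when only these 2 arms were fitted (limma adjusted p = 0.0219).

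Osteomodulin, a member known from bone-forming cells, varied most within an arm. Omd read 372, 444 and 709 in NRAS-off tumours, 205, 275 and 335 in MEK inhibitor tumours, and 112, 303 and 586 in vehicle tumours. NRAS-off lay above MEK inhibitor tumours, while the vehicle range covered the MEK inhibitor range and reached into the NRAS-off range. NRAS-off exceeded vehicle by 0.79 ± 0.31 and MEK inhibitor by 0.78 ± 0.31 (limma adjusted p = 0.045), and MEK inhibitor minus vehicle was 0.01 ± 0.31 (95% interval -0.64 to 0.66, limma adjusted p = 0.987). NRAS-off minus vehicle was 0.56 to 1.00 with a tumour left out. Of 27 alternative settings, 8 lost the call of NRAS-off against vehicle and 14 lost that of NRAS-off against MEK inhibitor. Without NRAS-off replicate 1, 4, 5 or 6 or MEK inhibitor replicate 1, 2, 3 or 4, NRAS-off minus MEK inhibitor was 0.68 to 0.82 and not called.

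The low vehicle values of Omd came from replicates 1 and 2, at 128 and 112 against 276 to 586 in the other 4, and the same tumours were lowest for Ogn, the neighbour of Omd on chromosome 13. Their summed adipocyte marker intensity, 3459 and 2732, was the highest of the vehicle arm, where the other 4 read 1143 to 1951. The part of adipocyte RNA in these values was not tested.

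**Figure D3:**
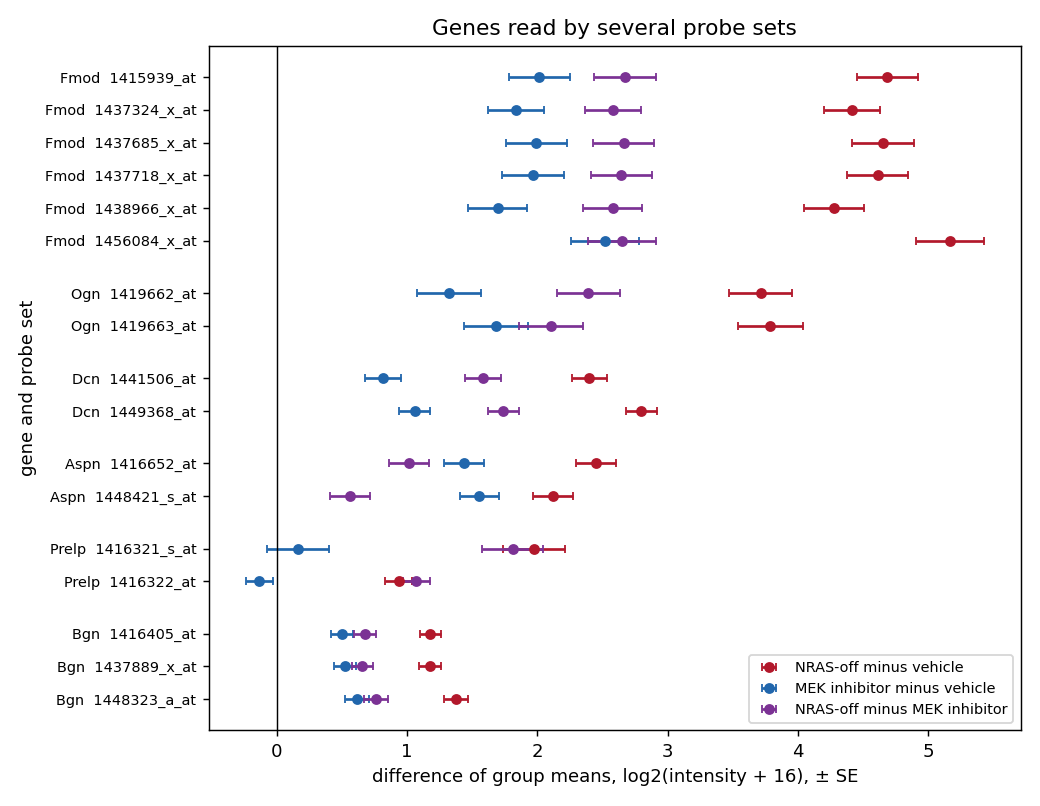
Differences ± SE in log2(intensity + 16) for each probe set of the 6 genes that have several, for both treated arms over vehicle and for NRAS-off over MEK inhibitor. Probe sets of a gene share direction in each contrast except Prelp in MEK inhibitor minus vehicle, at 0.17 and -0.13.

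Most of the family lies in 3 groups of adjacent genes in the RefSeq gene table of GRCm38.p6, and neighbours did not move by the same amount. On chromosome 10 the coding genes Dcn, Lum and Kera follow each other, with differences of NRAS-off from vehicle of 2.80, 2.98 and 0.90 and of MEK inhibitor from vehicle of 1.06, 1.03 and -0.02. On chromosome 13 Ecm2, a leucine-rich relative of decorin, is followed by Aspn, Omd and Ogn, with 1.43, 2.12, 0.79 and 3.79 for NRAS-off and 0.49, 1.56, 0.01 and 1.68 for MEK inhibitor. On chromosome 1 Optc, the opticin gene of the eye, is followed by Prelp and Fmod, with -0.02, 1.98 and 5.17 for NRAS-off and -0.08, 0.17 and 2.52 for MEK inhibitor. Bgn and Podn lie on chromosomes X and 4.

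Each member's log2 value was also set against the mean log2 value of 16 fibroblast markers in the same tumour, none of them a member. That mean was 12.20 ± 0.12 in NRAS-off, 11.59 ± 0.09 in MEK inhibitor and 11.31 ± 0.18 in vehicle tumours (SD, n = 6 each). As a description, NRAS-off minus vehicle on this scale was 4.28 for Fmod, 2.90 for Ogn, 2.09 for Lum, 1.91 for Dcn, 1.23 for Aspn and 1.08 for Prelp. For Bgn, Podn, Kera and Omd it was 0.29, 0.04, 0.01 and -0.10. MEK inhibitor minus vehicle was 2.24 for Fmod, 1.40 for Ogn, 1.28 for Aspn, 0.78 for Dcn, 0.75 for Lum and 0.22 for Bgn, and lay between -0.30 and -0.06 for the other 4. NRAS-off minus MEK inhibitor was 2.04 for Fmod, 1.495 for Ogn, 1.35 for Lum, 1.20 for Prelp and 1.13 for Dcn, then 0.30 for Kera, 0.17 for Omd, 0.10 for Podn, 0.07 for Bgn and -0.05 for Aspn. The marker mean takes in 5 markers that were lower in NRAS-off than in vehicle tumours. In NRAS-off tumours Col1a2 read 41167 to 42389 and Col3a1 41754 to 43012, close to the highest intensity of any array, 44480. A rise in these collagen genes, and with it in the marker mean, may be understated there. The part of fibroblast number in the proteoglycan differences was not tested.

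The fibroblast markers did not move as a block. Of the 16, 11 were higher and 5 lower in NRAS-off than in vehicle tumours, with a median of 0.96, beside 31.8% and 27.5% of all genes. In MEK inhibitor tumours 5 were higher and 3 lower than in vehicle, with a median of 0.28, beside 24.3% and 20.9% of all genes. The microfibril gene Mfap4 was higher by 3.56 ± 0.21 and the decorin-binding dermatopontin gene Dpt by 3.09 ± 0.27 in NRAS-off tumours. Pdgfra, a receptor that marks fibroblasts, fell by 0.36 ± 0.08 there and by 0.70 ± 0.08 in MEK inhibitor tumours. Pdgfra intensity was 3742 to 4873 in NRAS-off, 3140 to 3922 in MEK inhibitor and 4908 to 6605 in vehicle tumours.

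Markers of other cell types also differed between arms. Beside the counts below, 31.8% of all genes were higher and 27.5% lower in NRAS-off than in vehicle tumours. For MEK inhibitor against vehicle the shares were 24.3% and 20.9%. All 12 skeletal muscle markers were higher in both treated arms than in vehicle, and their summed intensity was 38229 to 60136 in NRAS-off, 23242 to 55507 in MEK inhibitor and 3843 to 20534 in vehicle tumours. Of 10 macrophage markers, 9 were higher in NRAS-off and 7 lower in MEK inhibitor tumours than in vehicle (summed intensity 42640 to 60160, 8556 to 19402 and 17160 to 28392). All 10 endothelial markers were higher in NRAS-off than in vehicle tumours, and 1 was higher and 1 lower in MEK inhibitor tumours (summed intensity 2241 to 3247, 1052 to 1658 and 996 to 1726). Of 11 smooth muscle and pericyte markers, 6 were higher and 1 lower in NRAS-off than in vehicle tumours. In MEK inhibitor tumours 3 of them were higher and 3 lower (summed intensity 14034 to 16551, 13417 to 14870.5 and 12878 to 15145). Tendon and cartilage markers, of cells that make Fmod in normal tissue, summed to 752 to 1080, 864 to 1454 and 737 to 1349, with 3 of 8 higher and 3 lower in NRAS-off and none called in MEK inhibitor tumours against vehicle. Of these, the tenomodulin gene Tnmd read 85.4 to 143 in NRAS-off, 28.0 to 52.8 in MEK inhibitor and 26.8 to 51.1 in vehicle tumours. Mkx went the other way, at 83.4 to 131, 178 to 236 and 177 to 225 in the same order. Of 6 adipocyte markers, 3 were higher in NRAS-off and none in MEK inhibitor tumours than in vehicle (summed intensity 5336 to 8882, 1551 to 3664 and 1143 to 3459). Of 4 Schwann cell markers, 3 were higher in NRAS-off and 2 in MEK inhibitor tumours (9616 to 11971, 9022 to 11208 and 3651 to 5048). Most of that sum was Cdh19, with medians of 8107, 8347 and 3449 beside 10944, 9388 and 4188 for the sum. Whether host or melanoma cells gave the Cdh19 signal was not tested. The part of these cells in the proteoglycan differences was not tested.

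Of 8 further genes of the family, 6 were on the array and 4 passed the filter. Ecm2 and Chadl, a chondroadherin-like gene, were higher in all 3 contrasts, and the other 2 were not called in any. Higher calls took in 31.8% of all genes for NRAS-off and 24.3% for MEK inhibitor against vehicle. For NRAS-off against MEK inhibitor they took in 24.3%. Ecm2 differed from vehicle by 1.43 ± 0.13 in NRAS-off and 0.49 ± 0.13 in MEK inhibitor tumours (limma adjusted p = 0.0057). Chadl differed by 1.35 ± 0.12 in NRAS-off and 1.06 ± 0.12 in MEK inhibitor tumours (limma adjusted p = 5.8e-07).

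Genes of the enzymes that build the sugar chains were called in both directions. Of 22 chondroitin and dermatan sulfate genes, 7 were higher and 7 lower in NRAS-off than in vehicle tumours (median 0.01), near the shares of all genes, 31.8% and 27.5%. Of the same genes, 3 were higher and 9 lower in MEK inhibitor than in vehicle tumours (median -0.09), beside 24.3% and 20.9% of all genes. Chst11, a chondroitin 4-O-sulfotransferase, fell by 1.56 ± 0.10 in NRAS-off and by 1.24 ± 0.10 in MEK inhibitor tumours (limma adjusted p = 1.1e-08). Csgalnact1, which starts the chondroitin chain, fell by 1.04 ± 0.13 and 0.59 ± 0.13 (limma adjusted p = 0.00094). Dse, the epimerase that turns chondroitin into dermatan sulfate, was higher by 0.86 ± 0.17 in NRAS-off, with -0.07 ± 0.17 in MEK inhibitor tumours. Of 9 keratan sulfate genes, 1 was higher and 3 lower in each treated arm against vehicle, beside the same shares of all genes. The sulfotransferase gene Chst2 fell by 1.17 ± 0.14 in NRAS-off and by 1.27 ± 0.14 in MEK inhibitor tumours. The single higher gene was the galactosyltransferase gene B4galt4 in NRAS-off tumours, by 1.10 ± 0.10, and the sulfotransferase gene Chst5 in MEK inhibitor tumours, by 0.48 ± 0.11.

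Next were collagens and the proteins that shape their fibrils. Of 29 such genes, 19 were higher and 8 lower in NRAS-off than in vehicle tumours (median 0.63, beside 31.8% and 27.5% of all genes), and 14 were higher and 3 lower in MEK inhibitor than in vehicle tumours (median 0.38, beside 24.3% and 20.9%). The type I collagen gene Col1a1 was higher by 1.87 ± 0.14 in NRAS-off and 1.40 ± 0.14 in MEK inhibitor tumours (limma adjusted p = 1.6e-07), and the crosslinking enzyme gene Loxl1 by 1.83 ± 0.10 and 0.97 ± 0.10 (limma adjusted p = 3.7e-07). Pcolce2, which speeds the trimming of procollagen, fell by 4.66 ± 0.29 and 2.30 ± 0.29 (limma adjusted p = 3.0e-06). The fibroblast list shares Col1a1, Col1a2, Col3a1 and Dpt with this one.

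Receptors and growth factors that bind these proteoglycans went both ways. Of 21, 12 were higher and 5 lower in NRAS-off than in vehicle tumours, beside 31.8% and 27.5% of all genes. In MEK inhibitor tumours 7 were higher and 5 lower than in vehicle, beside 24.3% and 20.9% of all genes. Ccn4, a matricellular growth factor gene, was higher by 1.67 ± 0.15 in NRAS-off and 0.95 ± 0.15 in MEK inhibitor tumours (limma adjusted p = 5.6e-05). Egfr, a receptor that decorin binds, was higher by 1.79 ± 0.14 in NRAS-off and 0.83 ± 0.14 in MEK inhibitor tumours (limma adjusted p = 5.6e-05). Met, another decorin receptor, fell by 1.42 ± 0.18 in NRAS-off tumours and was 0.25 ± 0.18 in MEK inhibitor tumours (limma adjusted p = 0.266). Cd44 fell by 1.78 ± 0.11 and 0.77 ± 0.11 (limma adjusted p = 1.1e-05). Tgfb2 was higher by 1.10 ± 0.11 and 1.43 ± 0.11 and Tgfb1 fell by 0.87 ± 0.11 and 1.02 ± 0.11, in NRAS-off and MEK inhibitor tumours in that order. Cd14 and Tlr2, receptors for biglycan on myeloid cells, fell by 1.01 ± 0.20 and 0.61 ± 0.18 in MEK inhibitor tumours and were higher by 0.61 ± 0.20 and 0.63 ± 0.18 in NRAS-off tumours, each against vehicle.

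Among 14 proteases known to cut these proteins, 6 were higher and 3 lower in NRAS-off than in vehicle tumours, beside 31.8% and 27.5% of all genes. In MEK inhibitor tumours 3 were higher and 4 lower than in vehicle, beside 24.3% and 20.9% of all genes. Gzmb, the granzyme B gene, fell by 2.84 ± 0.36 in NRAS-off and by 1.68 ± 0.36 in MEK inhibitor tumours, and Mmp9 fell by 1.80 ± 0.42 and 1.95 ± 0.42. Mmp3 and Ctsk, the stromelysin and cathepsin K genes, were higher by 1.31 ± 0.28 and 1.27 ± 0.24 in NRAS-off tumours, with -0.44 ± 0.28 and -0.46 ± 0.24 in MEK inhibitor tumours. Of 12 other matrix proteoglycan and link protein genes, 2 were higher and 6 lower in NRAS-off and 1 higher and 5 lower in MEK inhibitor tumours. The same shares of all genes stand beside these counts. Hapln1, a link protein of hyaluronan complexes, fell by 1.98 ± 0.26 and 0.82 ± 0.26, and the lubricin gene Prg4 by 1.90 ± 0.24 and 1.53 ± 0.24. Srgn, the serglycin gene of blood cells, was higher by 0.62 ± 0.22 in NRAS-off and fell by 1.81 ± 0.22 in MEK inhibitor tumours.

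**Figure D4:**
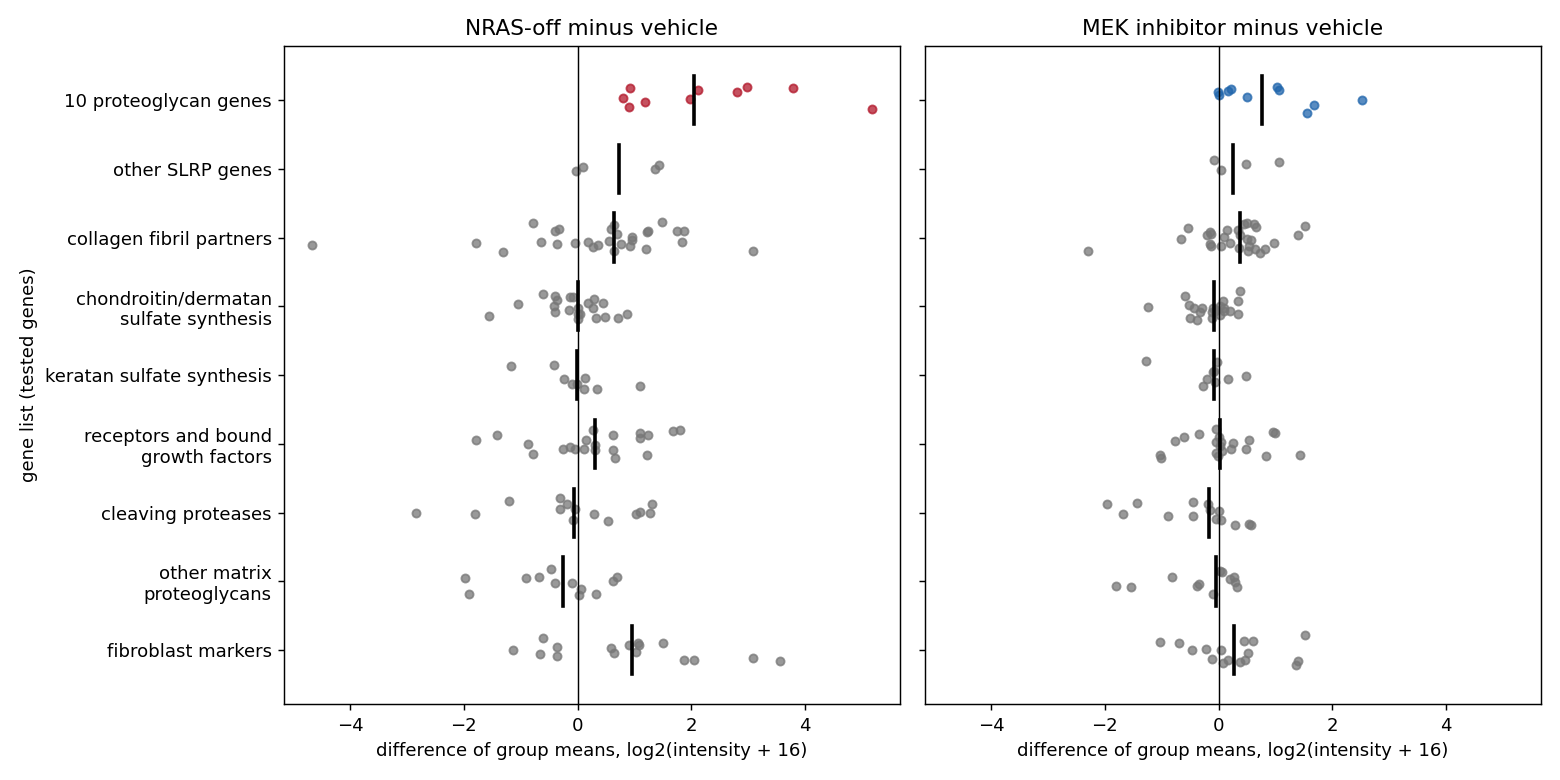
Differences from vehicle in log2(intensity + 16) for each tested gene of the lists, NRAS-off on the left and MEK inhibitor on the right. A point is a gene and a vertical bar the median of its list. The 10 proteoglycan genes have medians of 2.05 and 0.76, the collagen fibril partners 0.63 and 0.38, and the chondroitin and dermatan sulfate genes 0.01 and -0.09.

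The tested genes whose pattern lay nearest to Fmod, Lum and Dcn were found by the root mean square distance of their centred log2 values over the 18 tumours. These distances reflect mostly the differences between arms on shared arrays, and are given as a description. For Fmod they were Ptn at 0.68, Ugt8a at 0.73, Col8a2 at 0.79, Slc40a1 at 0.81 and Gpr17 at 0.81. Ptn, the gene of the heparin-binding growth factor pleiotrophin, differed from vehicle by 5.03 in NRAS-off and 3.13 in MEK inhibitor tumours. Lum had Pdgfrl at 0.23, Srpx at 0.24, Fmo1 at 0.27, Mfap2 at 0.28 and Mdk at 0.28, and Dcn had Srpx at 0.21, Pdgfrl at 0.22, Mfap2 at 0.23, Lama2 at 0.26 and Mdk at 0.30. The lists of Lum and Dcn share Pdgfrl, Srpx, Mfap2 and Mdk, 4 of 5 genes in each, and neither shares a gene with that of Fmod. Srpx differed from vehicle by 2.87 in NRAS-off and 0.84 in MEK inhibitor tumours, and Mfap2, a microfibril gene, by 2.64 and 0.67.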

How the data were processed

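Per the labels' protocols, Trizol was used to extract RNA, of which 10 ug went into biotin labelling. The deposited table holds probe set intensity values that the authors had summarised, taken here as linear from their range (7.37 to 44480); on another scale the differences would change. Per the submitters' processing notes, MAS5 and RMA were used, with no version, and which of them made this table is not given in the sources used here. The number of arrays limits the precision. No label gives a batch.

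Symbols came from the platform annotation: 34945 probe sets had 1, 932 several and 9160 none. From the intensities, log2(intensity + 16) was computed, the probe set with the highest mean stood for its gene, and genes with a mean at or under the 25th percentile (log2 value 5.305) were left out. A single limma fit (version 3.58.1, R 4.3.3) covered all 3 arms (15 residual degrees of freedom, prior 3.46). A second fit covered probe sets. The fit was tested on simulated data. Promoters came from RefSeq, and figures from matplotlib 3.10.9 in Python 3.11.15.

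Members, gene lists and marker lists were chosen with earlier results of these data known. Named genes were all members, genes among the 4 largest absolute differences of their list in any of the 3 contrasts, defining markers, and the 5 genes nearest to Fmod, Lum and Dcn. Alternatives changed the filter, probe set rule, normalization, pseudocount, prior, weights, arms fitted, block, threshold and tumours left out.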

Additional observations from a re-analysis of the deposited data

Results flagged for a closer look

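The 10 members and 10 marker lists were looked at in each arm, 60 groups of 6 tumours in all, for a single tumour far from the other 5 by Dixon's ratio, the gap to the nearest tumour over the group's range. About 1 group in 20 is picked out by chance, and 7 were, 2 of them among the 30 groups of members. Fmod read 4502 in MEK inhibitor replicate 1 against 1094 to 1793 in the other 5. Ogn read 1261 in MEK inhibitor replicate 2 against 1583 to 1792. Among summed marker intensities, keratinocyte markers reached 30397 in NRAS-off replicate 2 against 760.6 to 987.1 and 1373 in MEK inhibitor replicate 6 against 661.9 to 732.2. Schwann and nerve sheath markers reached 11208 in MEK inhibitor replicate 5 against 9022 to 9641, and smooth muscle and pericyte markers 14870 in MEK inhibitor replicate 4 against 13417 to 13845. Endothelial markers reached 1726 in vehicle replicate 6 against 996.4 to 1222.2.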

How the results depend on the processing

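The 30 member differences were recomputed to 807 alternative values, of which 757 kept their direction and side of the threshold, 35 lost a call, 1 gained a call and 14 changed sign. Beyond Omd and the test against a 2-fold change, 6 values changed. Against a 2-fold change, 6 members were called in NRAS-off minus vehicle, 1 in MEK inhibitor minus vehicle and 4 in NRAS-off minus MEK inhibitor. By that test 2.45%, 0.433% and 1.54% of all genes were higher, and the choice of the family bears on the first count. Leaving out a tumour at a time gave 9 to 10, 6 to 6 and 9 to 10 members called higher at the main threshold. Kera is counted in the NRAS-off contrasts. With all tumours 31.8%, 24.3% and 24.3% of all genes were called higher, and the shares with a tumour left out were not counted. All sign changes were in uncalled differences of MEK inhibitor minus vehicle. Omd there was -0.014 after quantile normalization, -0.022 with a pseudocount of 64, 0 with array weights and -0.045 without the 2 keratinocyte-rich tumours (a setting chosen after seeing the data), and -0.227 to 0.22 with a tumour left out. Kera was 0.006 without those 2 tumours and -0.068 to 0.039 with a tumour left out, and Prelp -0.021 to 0.309. Kera was not tested with a filter at the 50th percentile. The cause of these changes was not tested.

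Replicate numbers were not taken to pair tumours, because not every same-numbered deviation correlated above 0.1. Tumours of different numbers were not correlated for comparison, so the values below cannot decide whether the numbers mark a pairing. The correlations were -0.085 to 0.159, -0.136 to 0.273 and 0.036 to 0.152, with values over 0.1 in 1, 4 and 3 of 6 numbers for NRAS-off and vehicle, MEK inhibitor and vehicle, and NRAS-off and MEK inhibitor. With the replicate number as a block 10, 6 and 10 members were called higher, and 4701, 3614 and 3609 of all 15005 genes. Both counts of 10 take in Kera, which passed the filter only through the NRAS-off arm. All 3 counts take in Fmod, Lum and Dcn, for which the family was chosen, and nothing is read from them. Low signal limits Kera most.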
